A study of Mus musculus with 4 samples.

Results

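CUT&RUN libraries of mouse neural stem cells that overexpressed Six3 gave a table of called coverage regions, and the 26640 tallest regions of its finer height scale are described here. The highest signal of a region in the table is a whole multiple of either 1.9 or 0.48, and the members are the regions of the 0.48-step set on chromosomes 1 to 19 whose highest signal was 1.92, 2.4, 2.88, 3.36, 3.84 or 4.32, that is 4 to 9 steps. They are called tall regions below. They made up 4.43% of the 602020 regions of the 0.48-step set on these chromosomes and 1.69% of the 1578514 regions of the table, and they were set beside the 454608 regions of 0.96, or 2 steps. Height chose the members, so every height, summed signal, width and shape given below is a description and not a finding.

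The series held 3 libraries made against FLAG-tagged Six3 and 1 library made with IgG, all from primary neural stem cells of genotype WT, 3 h after the growth factor medium was replaced by neural differentiation medium. Per the series' design text, Six3 was overexpressed in the cultured lines; no source used here gives the vector or the number of cultures. No column of the table belongs to 1 library, so FLAG signal was not set against IgG, library depths are unknown, and the values carry no error between replicates. No source used here says whether 1 step stands for 1 fragment of a library. The intervals below are 95% intervals, by Wilson's method for a share and by Katz's for a ratio of 2 shares; they cover counting error only and take regions as independent, which neighbouring regions need not be. The table holds no RNA, so the labelled cell type could not be set against expression markers.

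Six3 is a homeodomain transcription factor needed for the forebrain and the eye, and it works with corepressors of the Tle (Groucho) family. It and its relatives bind DNA through a homeodomain and a domain next to it that is particular to their family, and sites with a TGATAC core or with the TAAT core of homeodomains are known for them. In CUT&RUN a nuclease tethered to an antibody cuts around the bound protein, so sequencing coverage piles up where the released fragments overlap.

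To show what lay beneath the tallest regions at promoters, the bases before 6 RefSeq start sites (GRCm38.p6, the mm10 build) are printed. They are the promoters under the tallest regions by highest and then summed signal, with 1 promoter for each region. Each line gives the 250 bases before the start site, 5′ to 3′ on the strand of the gene, and capitals mark the bases that the tall region covered.
Gm39607 (chr11:20469231-20469480, plus strand): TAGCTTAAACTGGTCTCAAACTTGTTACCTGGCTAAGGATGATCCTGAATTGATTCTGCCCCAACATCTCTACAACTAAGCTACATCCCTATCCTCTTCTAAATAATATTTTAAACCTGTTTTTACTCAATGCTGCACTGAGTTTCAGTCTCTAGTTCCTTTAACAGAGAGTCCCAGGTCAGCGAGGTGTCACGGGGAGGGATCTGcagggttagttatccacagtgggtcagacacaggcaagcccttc
BC055324 (chr1:163994797-163995046, minus strand): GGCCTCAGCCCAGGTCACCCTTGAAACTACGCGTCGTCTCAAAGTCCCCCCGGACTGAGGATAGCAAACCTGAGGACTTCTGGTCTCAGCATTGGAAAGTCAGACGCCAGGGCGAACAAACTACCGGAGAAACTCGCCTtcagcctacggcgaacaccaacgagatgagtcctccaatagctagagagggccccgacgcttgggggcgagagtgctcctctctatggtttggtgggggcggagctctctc
Olfr935 (chr9:38995434-38995683, minus strand): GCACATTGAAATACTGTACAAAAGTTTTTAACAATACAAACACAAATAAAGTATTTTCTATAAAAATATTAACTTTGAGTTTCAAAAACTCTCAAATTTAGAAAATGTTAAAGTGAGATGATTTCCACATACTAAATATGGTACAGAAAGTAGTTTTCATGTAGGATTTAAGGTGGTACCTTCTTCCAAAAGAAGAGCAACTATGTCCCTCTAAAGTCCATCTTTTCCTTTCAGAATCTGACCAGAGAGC
Wfdc11 (chr2:164674088-164674337, minus strand): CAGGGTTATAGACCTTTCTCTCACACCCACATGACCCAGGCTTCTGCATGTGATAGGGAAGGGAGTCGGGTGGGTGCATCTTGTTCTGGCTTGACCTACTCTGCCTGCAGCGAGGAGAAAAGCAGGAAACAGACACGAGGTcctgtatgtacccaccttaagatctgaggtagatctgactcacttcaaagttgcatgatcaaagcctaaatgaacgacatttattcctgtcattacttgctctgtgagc
Gm30422 (chr4:151215651-151215900, plus strand): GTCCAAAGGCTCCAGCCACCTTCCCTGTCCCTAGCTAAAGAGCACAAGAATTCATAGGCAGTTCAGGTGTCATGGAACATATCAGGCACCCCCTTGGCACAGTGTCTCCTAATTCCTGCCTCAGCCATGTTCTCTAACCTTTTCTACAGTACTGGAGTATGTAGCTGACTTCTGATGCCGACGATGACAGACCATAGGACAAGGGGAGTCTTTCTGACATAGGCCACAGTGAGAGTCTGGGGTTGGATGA
Glrx5 (chr12:105032368-105032617, plus strand): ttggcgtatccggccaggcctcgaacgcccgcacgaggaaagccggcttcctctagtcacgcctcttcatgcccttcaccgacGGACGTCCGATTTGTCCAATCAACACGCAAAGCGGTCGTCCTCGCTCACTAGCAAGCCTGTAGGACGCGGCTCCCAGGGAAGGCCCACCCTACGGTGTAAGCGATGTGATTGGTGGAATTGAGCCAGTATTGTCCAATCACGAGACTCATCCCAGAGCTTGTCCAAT

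The promoter of Gm39607, a long non-coding RNA gene, lay under a region of 3.36 (7 steps), which spanned 690 bp, and the whole stretch of 84 bp at the highest signal fell within the printed bases. It is the same region whose nearest protein-coding gene, Sertad2, is named below. The other 5 promoters lay under regions of 2.88 (6 steps) that were 332 to 1022 bp wide. Glrx5, which encodes a mitochondrial glutaredoxin of iron-sulphur cluster assembly, had 38 bp of the highest stretch before its start site, and the long non-coding RNA gene Gm30422 had 56 bp. At Olfr935, an odorant receptor gene, at Wfdc11 and at BC055324 none of the printed bases was at the highest signal. The 5 promoters with a region of 2.88 thus shared a height but not the place of the summit.

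The printed stretches were searched on both strands for TGATAC and for the homeodomain palindrome TAATTA, as well as for the E-box CACGTG and the GC box GGGCGG. Among these 6 stretches the only match was the GC box in that of BC055324, outside the bases that the tall region covered. The covered bases of the 6 stretches thus held none of the 4 motifs. The shorter TAAT core of homeodomains was not among those searched. It can be read in the covered bases of Gm39607 and Gm30422 and, on the other strand, of Olfr935. Its share over all promoters was not counted. A promoter was next taken as the 300 bases from 250 before to 50 after the start. It counted as under a region at any overlap, and all 300 bases were searched, covered or not. TGATAC was found on either strand in 12 of 235 promoters under a tall region (5.11%, 2.94 to 8.71%). Its share was 5.79% of the 2953 promoters under a 2-step region and 5.42% of all 31396 promoters. TAATTA was found in 6 of the 235 (2.55%, 1.18 to 5.46%), against 6.54% under 2-step regions (5.70 to 7.48%) and 5.27% of all promoters. The tall interval lay below the 2-step one and held the share of all promoters, and no test was run. The E-box was found in 4.26% of promoters under a tall region (2.33 to 7.65%), against 6.87% under 2-step regions and 7.14% of all. The GC box was found in 32.3%, against 34.0% under 2-step regions and 36.0% of all. None of the 4 motifs contains another, and each match is a match of letters only. Base content was alike, with a median of 53.0% G and C in promoters under a tall region, 52.7% under a 2-step region and 53.0% over all promoters. Of 919 miRNA hairpins 4 (0.435%) overlapped a tall region, those of Mir5624, Mir1197, Mir3965 and Mir6363. Tall regions covered 0.370% of the spanned sequence, so this share is close to that of sequence. The far more numerous 2-step regions overlapped 48 hairpins (5.22%).

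Tall regions thinned out quickly with height and were built up over a narrow summit. Of the members, 22570 had 4 steps, 3511 had 5 steps, 497 had 6 steps, 54 had 7 steps, 5 had 8 steps and 3 had 9 steps. Just inside the rule stood the 22570 regions of 1.92, and just outside it 120772 regions of 3 steps. Each step from 4 to 8 held 18.7%, 15.6%, 14.2%, 10.9% and 9.26% of the number at the step below. At 9 steps the share was 60.0%, on 3 regions.

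The median width was 301 bp in tall regions (quartiles 219 and 413 bp) and 181 bp in 2-step regions (137 and 248 bp). Among the tall regions it was 294 bp at 4 steps, 338 bp at 5 steps and 373 bp at 6 steps. The stretch at the highest signal went the other way, with a median of 34.0 bp in tall regions, or 10.9% of the width, and 60.0 bp in 2-step regions, or 37.3% of the width. The mean signal over the region was 52.6% of the highest in tall regions and 66.8% in 2-step regions (medians). The centre of the highest stretch lay a median of 12.8% of the width from the centre of the region in tall regions and 11.5% in 2-step regions. Tall regions together covered 8885 kb, 0.370% of the spanned sequence.

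**Figure D1:**
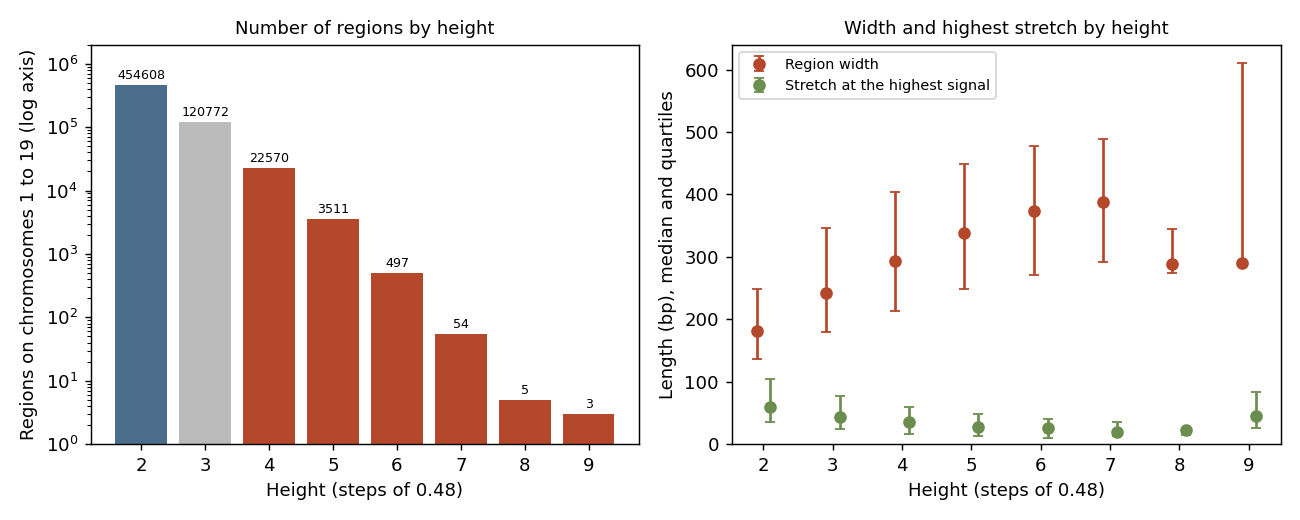
Left, number of 0.48-step regions on chromosomes 1 to 19 by height in steps (log axis; 2 steps blue, 3 steps grey, 4 to 9 steps red). Right, median and quartiles of region width and of the stretch at the highest signal, in bp. Width is 294 bp at 4 steps and 373 bp at 6 steps, while the highest stretch is 35.0 and 26.0 bp; the points at 8 and 9 steps stand for 5 and 3 regions.

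The 3 regions of 9 steps lay in unlike places. The first, at chr12:88676732-88677661, was 930 bp wide with a summed signal of 2336 (in signal times bp, as all summed signals here), the largest of the tall regions. It lay 45 kb outside Nrxn3, which encodes a presynaptic neurexin, and a 1.9-step region of 11.4 covered its midpoint. The second, at chr1:136428860-136429141, was 282 bp wide with a summed signal of 584 and lay inside Ddx59, a DEAD-box RNA helicase gene, 13.7 kb from its nearer end. The third, at chr12:114582156-114582445, was 290 bp wide with a summed signal of 478. Its nearest protein-coding gene, Adam6a, was 1036 kb away, but it lay within the span that RefSeq gives to Igh, the immunoglobulin heavy chain locus. No 1.9-step region overlapped the second or the third.

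Of the 5 regions of 8 steps, 1 lay inside a protein-coding gene. This was the region at chr1:88345247-88345730 in Trpm8, a cold-sensing ion channel gene, 484 bp wide with a highest stretch of only 4 bp. Near Cntn5, a neural adhesion gene, the region at chr9:11147171-11147515 stood 242 kb outside the gene. The region at chr14:97215720-97215994 stood 571 kb from Dach1, a transcriptional cofactor that acts with Eya proteins and relatives of Six3. At 39263995 to 39264282 on chromosome 19 the region stood 22.8 kb from Cyp2c29, a cytochrome P450 gene, and overlapped the pseudogene Cyp2c53-ps. At 25523059 to 25523320 on chromosome 4 it stood 86.0 kb from Fut9, a fucosyltransferase gene, under a 1.9-step region of 7.60. Summed signals of these 5 regions ran between 502 and 762, all below that of the region near Nrxn3.

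The other 17 of the 25 tallest regions had 7 steps. Among those inside genes were regions in Opcml and Dpp6, which encode a neural adhesion molecule and an auxiliary subunit of potassium channels, in Trak1, an adaptor of mitochondrial transport, in Adcy7, an adenylate cyclase, and in Adamtsl1. Outside genes the nearest were Irf8 at 4.15 kb, a transcription factor of myeloid cells, Fdx1 at 42.7 kb, a ferredoxin, Sertad2 at 73.7 kb and Ptchd4 at 86.6 kb. Farther off lay the bitter taste receptor gene Tas2r119 at 199 kb, Triml1 at 444 kb, Fam174a at 540 kb, Slitrk6 at 710 kb, Nr2f1 at 886 kb and Brinp3 at 919 kb. The region at chr15:101115049-101115437 was the only one of the 25 with its midpoint within 1 kb of a gene end, 0.307 kb from Ankrd33 and overlapped by a 1.9-step region of 9.50. Of the 25, 8 lay inside a protein-coding gene and 17 stood outside, at a median distance of 199 kb. Over all tall regions 42.0% touched such a gene, and those outside lay a median of 79.3 kb away. A 1.9-step region shared at least 1 bp with 7 of the 25, against 33.5% of all tall regions. The 25 were picked by height, and no test of these differences was run.

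Against genes, the shares of tall and 2-step regions were close. By its midpoint, a region was put within 1 kb of either end of a protein-coding gene, else in a gene body, else outside genes. Gene ends held 876 tall regions, or 3.29% (3.08 to 3.51%), against 3.09% of 2-step regions (3.04 to 3.14%), a ratio of 1.07 (0.996 to 1.14). With 2-step regions weighted to the widths of the tall regions, the 2-step share was 3.37% and the ratio 0.976. Other ways of counting gave intervals above 1: the ratio was 1.14 (1.07 to 1.21) when any overlap of 1 bp counted, without width weighting, and 1.04 (1.01 to 1.08) with a window of 5 kb. Gene bodies held 39.9% of tall and 40.1% of 2-step regions, a ratio of 0.995 (0.980 to 1.01). Outside genes stood 56.8% of each, a ratio of 1.0 (0.989 to 1.01). Of the spanned sequence, 3.10% was within 1 kb of a gene end, 39.2% in gene bodies and 57.7% outside genes.

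Distances to the nearest gene were also close. Of the tall regions 42.0% touched a protein-coding gene, against 41.9% of the 2-step regions. Those outside lay a median of 79.3 kb from the nearest gene, against 83.2 kb for 2-step regions, and 7.67% of all tall regions were over 500 kb from one, against 8.23% of 2-step regions. The tall regions had 9202 different nearest genes.

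Of the heights tried, the 559 regions of 6 to 9 steps gave the larger share at gene ends, 27 regions or 4.83% (3.34 to 6.94%), a ratio of 1.57 to the 2-step share (1.08 to 2.26). At 5 steps the share was 3.08% (2.55 to 3.70%), so the shares did not climb evenly with height. No test of this difference was run, and the cut at 6 steps was 1 of 2 alternative heights tried. The 2-step share was not weighted for width here, although regions of 6 to 9 steps had a median width of 373 bp against 181 bp.

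**Figure D2:**
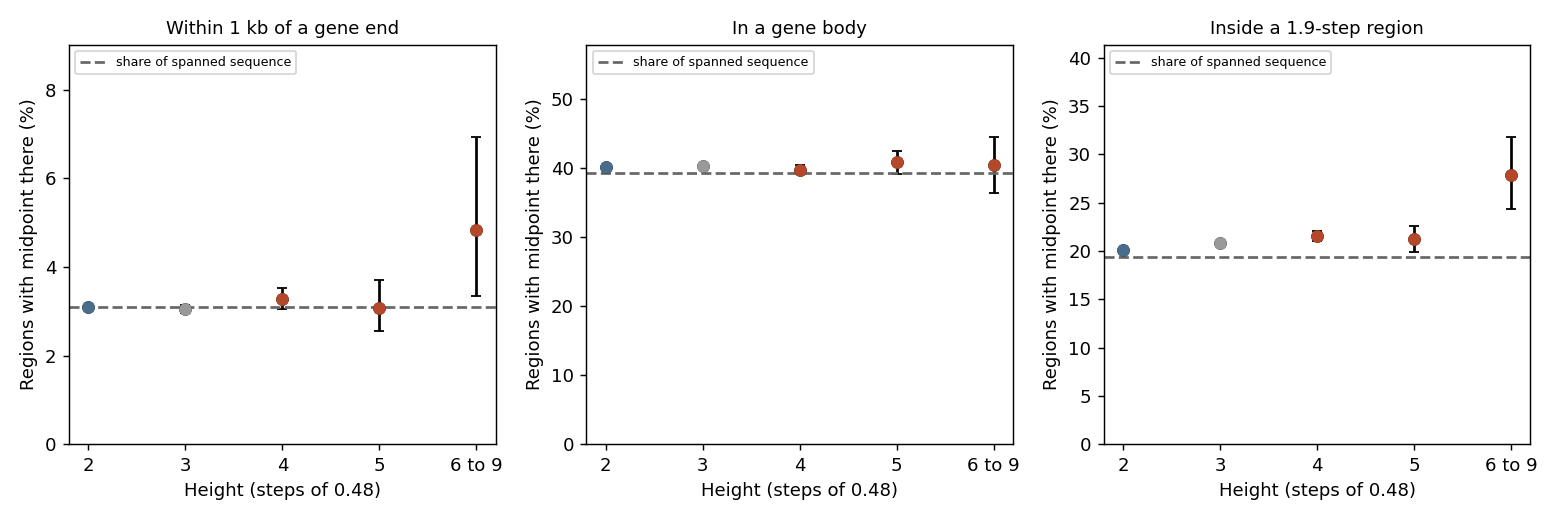
Share of regions, in percent with 95% Wilson intervals, whose midpoint lay within 1 kb of a gene end (left), in a gene body (middle) or inside a 1.9-step region (right), by height in steps; dashed lines give the share of spanned sequence. The points stay near the dashed lines for gene ends and bodies up to 5 steps, and the 6 to 9 step point stands at 4.83% at gene ends and at 27.9% inside 1.9-step regions.

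RefSeq start sites, which carry a strand, gave the same picture for 31396 sites on 18 chromosomes. Within 1 kb of a start site lay 615 of 25704 tall regions, or 2.39%, against 2.25% of 2-step regions, a ratio of 1.07 (0.983 to 1.15). Within 0.25 kb the ratio was 1.05 (0.894 to 1.23), and within 5 kb 1.05 (1.01 to 1.09). The median distance to the nearest start site was 41.7 kb for tall and 42.3 kb for 2-step regions. In 20 bins of 500 bp around the start, tall density over its own mean had an interval above 1 in 3 bins, none of them next to the start. The highest was 1.33 (1.13 to 1.55), from 5.0 to 4.5 kb upstream. The 500 bp before the start had 1.02 for tall regions and 0.959 (0.921 to 0.998) for 2-step regions, and the 500 bp after it 0.981 and 0.971.

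**Figure D3:**
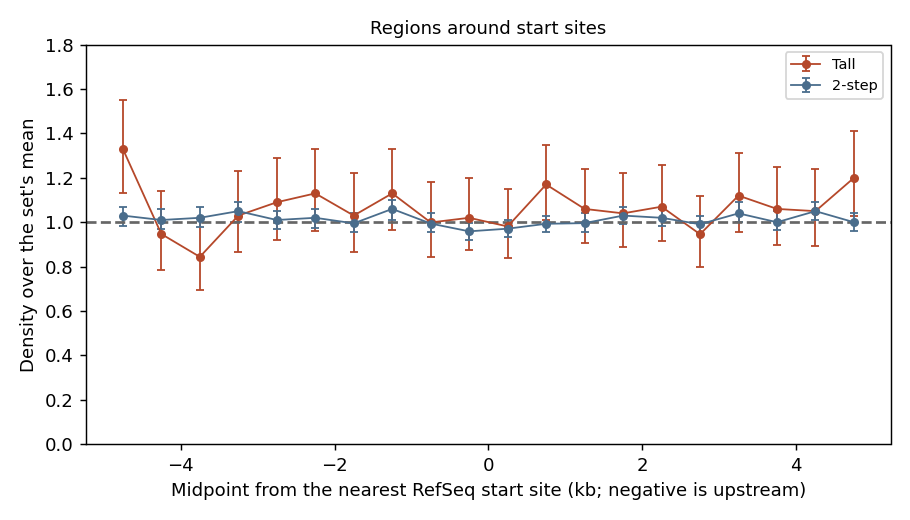
Density of region midpoints in bins of 500 bp around the nearest RefSeq start site, over the mean density of the same set, with 95% intervals, for tall (red) and 2-step (blue) regions; the dashed line marks the mean. Neither line has a peak at the start site, where the bin just upstream is at 1.02 for tall and 0.959 for 2-step regions.

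Counted by gene, with a region taken as at an end when its nearer edge was within 1 kb, 1076 of the 20665 protein-coding genes had a tall region there. This is 5.21% of genes, whereas 55.5% had a 2-step region at an end. Of the 1076 genes, 34 had more than 1 tall region at their ends and 1 had 3. The tallest region at the ends was 1.92 for 904 genes, 2.4 for 139 and 2.88 or more for 33. At 3.36 stood Ankrd33 and the neighbours Cc2d2b and Ccnj, a cyclin gene, which share a region between them on chromosome 19. By summed signal the next were Tbx4, a T-box factor of the hindlimb (2.88, summed 1171), and the neighbouring genes BC055324 and Mettl18 (2.88, summed 1146). Cc2d2b, Ccnj, Tbx4 and Mettl18 were chosen after their values were seen.

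The genes of 14 lists, drawn up for these cells, their lineages and other tissues, had tall regions at their ends about as often as all genes. The lists held 246 genes, of which 238 lay on chromosomes 1 to 19, and 15 of these, or 6.30%, had a tall region at an end. None of the 17 relatives and cofactors of Six3 did, which with 0 of 17 allows a share of up to 17.6%. This limit and the next ones are 3 divided by the number of genes, and not Wilson's. The forebrain and eye patterning factors had 0 of 20 (up to 15%) and the striatal projection neuron genes 0 of 15 (up to 20%). The liver genes, which mark another tissue, also had 0 of 17. With so few genes in a list, a count of 0 cannot be told apart from the 5.21% of all genes, and no list was tested.

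Members of the Wnt pathway had a tall region at an end in 4 of 22 cases. At Wnt7a, a ligand, the region reached 2.4 with a summed signal of 580 (chr6:91410618-91411108), inside the gene by its higher-coordinate end. The ligand genes Wnt3a and Wnt5a had regions of 1.92 with summed signals of 432 and 429. The Notch pathway had 2 of 20, the receptor genes Notch1 (1.92, summed 438) and Notch3 (1.92, summed 258). Notch1 and Msi1, which encodes an RNA-binding protein of stem cells (1.92, summed 156), were the 2 of 18 neural stem cell genes. Of the genes named here, all but Wnt7a stood at the lowest height of the rule.

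Each of 5 lists of neural cells or the Hedgehog pathway had 1 such gene, at 1.92 in every case. These were Foxp2 among 19 interneuron factors, Id4 among 16 astrocyte genes and Nkx2-2 among 15 oligodendrocyte lineage genes, all of which encode transcriptional regulators. The others were Rbfox3, the neuronal splicing factor NeuN, among 18 pan-neuronal genes, and Hhip, a Hedgehog-binding antagonist, among 15 Hedgehog genes. The housekeeping and skeletal muscle lists held such genes as well. Eef2, a translation elongation factor among 16 housekeeping genes, had a region of 2.4. Acta1 and Pvalb, among 18 skeletal muscle genes, had regions of 1.92.

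Gene bodies took up tall regions in proportion to their length. A tall region had its midpoint in 5669 genes, or 27.4%, whose median length was 62.8 kb, against 17.5 kb over all genes. The share was 5.22% of genes under 10 kb, 18.4% of those of 10 to 30 kb and 98.7% of the 533 genes of 300 kb or more. Per Mb of gene, however, tall regions numbered 12.7 in genes under 10 kb and 11 in genes of 300 kb or more, against a mean of 11.1 per Mb over all spanned sequence.

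The genes with most tall regions were accordingly very long. Ptprd, a receptor tyrosine phosphatase of synapses, held 29 tall and 429 2-step regions over 2271 kb, and Lsamp, a neural adhesion molecule, held 26 and 429. Macrod2 held 22 tall regions, Cntnap2 (a neurexin family member) 21, Rbfox1 (a neuronal splicing factor) 21, Ctnna3 (an alpha catenin) 20, Fhit 19 and Lrp1b (a lipoprotein receptor family member) 19. In these 8 genes tall regions numbered 9.23 to 13.7 per Mb. Anks1b and Cntn4 stood higher, with 23 tall regions (20.9 per Mb) and 21 (20.5 per Mb). Anks1b lies within a raised segment of chromosome 10 that is described below. Among the listed genes the pan-neuronal and synaptic list led, with 12 of 18 members holding a tall region and 90 regions in all, and it also had the longest genes, with a median of 120 kb.

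Some genes held many tall regions for their length. Of 415 genes with 5 or more tall regions, the most per Mb were in Ntng2, which encodes netrin-G2, an axon guidance molecule, with 5 tall and 11 2-step regions in 53.4 kb. Its tall regions reached 2.88, 2.4, 1.92, 1.92 and 1.92. Next came Cacna1i, a T-type calcium channel gene on chromosome 15, with 8 tall and 19 2-step regions in 111 kb, 2 of the 8 at 2.4 and the other 6 at 1.92; it also lies within a raised segment. Tall regions made up 31.2% of the tall and 2-step regions in Ntng2 and 29.6% in Cacna1i, against 5.54% over all chromosomes. The next 8 were Gpr176, Tbc1d14, Arid2 (a subunit of a chromatin remodelling complex), Myo6 (an unconventional myosin), Col15a1 (a collagen), Sptb (a spectrin), Mapk4 and Lhfpl2, with 5 to 7 tall regions each and 43.4 to 61.6 per Mb. Since these genes were picked for their counts, the values are extremes of 415 genes and no test applies.

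No tall region lay at Six3 itself (chr17:85613608-85626191). Its body contained 3 midpoints of 2-step regions and none of 3 steps. The nearest tall regions were 18.1 kb away, at 85644263 to 85644468, and 40.1 kb away, at 85573228 to 85573510, each with 1.92. Within 100 kb of Six3 stood 3 tall regions among 55 regions of the set, or 14.1 per Mb, and none was above 1.92. Of the 17 relatives and cofactors of Six3, 8 held a tall region in the body (47.1%), against 27.4% of all genes, and 9 held none. The list's median length was 25.5 kb, against 17.5 kb over all genes. In Dach1, which held the most of them, 6 tall regions lay in 383 kb, and in Eya4, a coactivator of proteins of the Six3 family, 5 in 248 kb. Tle5, a short Groucho-family gene of 6.93 kb, held 1.

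Along the chromosomes tall regions were spread almost evenly. Around a tall region, 0.231 other tall regions lay within 10 kb on average, 1.04 times the number at mean density (1.0 to 1.08, from the counting error of the pairs). Around 2-step regions the same ratio for 2-step regions was 1.01. Within 1 kb the ratios were 0.782 for tall and 0.880 for 2-step regions, and 0.871 for regions of 5 to 9 steps. Midpoints of regions that do not overlap cannot lie closer than their widths allow. Median widths were 301 bp for tall and 181 bp for 2-step regions. The ratios within 1 kb therefore cannot tell avoidance from width, and this was not tested. From 50 to 1000 kb the tall ratio lay between 1.01 and 1.02. The median distance to the nearest tall region was 30.6 kb, and 458 tall regions, or 1.72%, had another within 1 kb. The number of 2-step regions within 10 kb was also alike, with 3.79 around tall and 3.80 around 2-step regions.

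**Figure D4:**
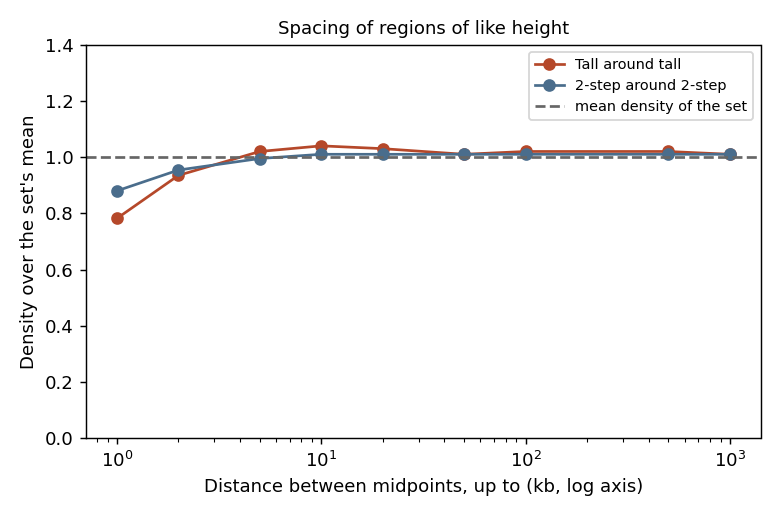
Density of tall regions around tall regions (red) and of 2-step regions around 2-step regions (blue), over the mean density of each set, against the largest distance between midpoints in kb (log axis). At 1 kb the values are 0.782 and 0.880, at 10 kb 1.04 and 1.01, and beyond that both stay near the dashed line of mean density. Widths of regions limit how close midpoints can lie at 1 kb.

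Joined across gaps of up to 10 kb, 78.9% of tall regions stood alone, 2316 pairs and 281 groups of 3 formed, and 34 groups had 4 members and 2 had 5. The denser group of 5 lay within Fbn1, the fibrillin gene of elastic microfibrils, over 19.2 kb at chr2:125384151-125403317. Its 5 regions were all of 1.92, with summed signals of 321, 461, 262, 271 and 424, and 3 regions of 2 steps stood among them. The other group of 5 spanned 20 kb outside genes, 56.1 kb from Fgf12, a fibroblast growth factor homologue, with 4 regions of 1.92 and 1 of 2.4. None of these 10 regions had its midpoint in a 1.9-step region, against 21.6% of all tall regions. With 10 regions this cannot be read as a trait of the 2 groups. The next 3 groups, of 4 regions within 9.18 kb or less, lay 146 kb from Unc5cl, over Pilra and 66.1 kb from Dio3.

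Tall regions stood apart from 2-step regions on parts of chromosomes 5, 10 and 15, which also had a high level of the other step set. Per chromosome, tall regions made up 4.16 to 4.53% of the 0.48-step set on 18 chromosomes and 5.51% (5.24 to 5.80%) on chromosome 15. Chromosome 15 had 13.6 tall regions per Mb, 1.24 times the median chromosome, but only 0.942 times the 2-step regions. In 500 kb bins, 12 runs of at least 3 bins with over 1.6 times the median summed 1.9-step signal form raised segments on chromosomes 5, 10 and 15, 58.5 Mb in all. These segments were recognised after the data were seen. Inside them 7.04% of 0.48-step regions were tall (6.61 to 7.50%), against 4.37% outside (4.32 to 4.42%). Tall regions numbered 15.1 per Mb inside and 11 outside, whereas 2-step regions numbered 150 inside and 190 outside.

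The shares were higher in the raised segments at 4, 5 and 6 steps alike, but this was not particular to tall regions. At 3 steps, just outside the rule, the share was 22.9% inside (22.2 to 23.7%), above the interval of 19.9 to 20.1% outside. The 2-step share was lower inside. Inside the raised segments 5.66% of the set had 4 steps, 1.2% had 5 and 0.175% had 6, against 3.71%, 0.570% and 0.0806% outside. Tall regions there were no wider, with a median of 287 bp inside and 294 bp outside at 4 steps. The tall share was 9.10% in the segments of chromosome 5, 7.15% in those of chromosome 10 and 6.70% in those of chromosome 15. Outside the segments the same chromosomes had 4.34%, 4.19% and 4.85%. Of the 12 segments, 10 had a tall share of 6.0 to 9.9%, and the other 2, both on chromosome 15, had 3.99% and 3.47%. At distal chromosome 5 (144500001 to 152000000) both kinds were sparse, with 6.67 tall and 42.0 2-step regions per Mb, and the tall share was 9.9%.

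Bins of 1 Mb grouped by their summed 1.9-step signal differed most at the high end. The tall share was 4.0% (3.86 to 4.15%) in 294 bins at 0.5 to 0.8 times the median bin, 4.34% in 541 bins at 1.0 to 1.1 times, 4.78% in 175 bins at 1.2 to 1.6 times, 6.68% in 49 bins at 1.6 to 2.5 times and 9.37% (7.96 to 11%) in 13 bins above that. Those 13 bins had 10.2 tall regions per Mb, fewer than the 11.1 of all sequence, but only 68.9 2-step regions per Mb. Without chromosomes 5, 10 and 15 it was 4.0% at 0.5 to 0.8 times and 4.63% (4.43 to 4.85%) at 1.2 to 1.6 times, and the 1 bin above had 6.79% (3.83 to 11.7%). The part of the 1.9-step level in the tall share was not tested.

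**Figure D5:**
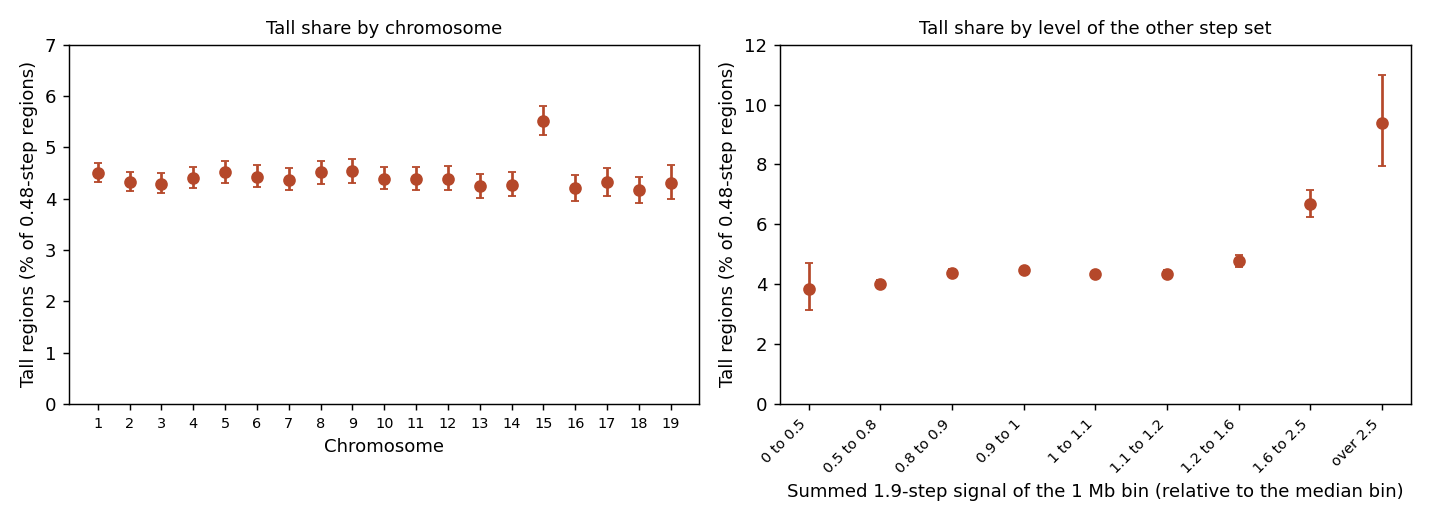
Tall regions as a percentage of all 0.48-step regions, with 95% Wilson intervals, by chromosome (left) and by the summed 1.9-step signal of 1 Mb bins relative to the median bin (right). Chromosome 15 stands at 5.51% above the other 18, and the share is 6.68% and 9.37% in the bins at 1.6 to 2.5 times and over 2.5 times the median.

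The bins with most tall regions lay on the same chromosomes. Over 2375 bins of 1 Mb the number of tall regions had a median of 11 and a highest value of 27. The 27 lay at 139000001 to 140000000 on chromosome 5, around Zfand2a, Uncx (a homeobox gene) and Gper1. Then came 26 on chromosome 15 from 80000001, around Cacna1i, Grap2 and Enthd1, and 26 from 96000001, around Scaf11, Slc38a1 and Gm41408. Bins on chromosome 10 from 83000001 (Aldh1l2, Washc4 and Appl2) and on chromosome 15 from 58000001 (Fam91a1, Fer1l6 and Anxa13) held 25 and 24. Of these 5 bins, 4 had their centre in a raised segment, all but the one from 96000001. Gene content went with smaller differences: bins without a protein-coding gene had a tall share of 4.24% (4.07 to 4.42%) and those with 31 to 67 genes 4.56% (4.32 to 4.8%).

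Tall regions lay inside 1.9-step regions slightly more often than 2-step regions did. The midpoint lay in a 1.9-step region for 21.6% of tall (21.1 to 22.1%) and 20.1% of 2-step regions (20 to 20.2%), a ratio of 1.08 (1.05 to 1.1), where 1.9-step regions covered 19.4% of the spanned sequence. Outside the raised segments the ratio was 1.07, and with 2-step shares weighted to the widths of the tall regions it was 1.07. For 6 to 9 steps the share was 27.9% (24.3 to 31.8%), and outside the raised segments 26.5% (23.0 to 30.4%). A 1.9-step region of 4 or more steps held the midpoint of 5.78% of tall and 5.06% of 2-step regions. Libraries behind the 2 sets are not named in the sources used here, so this overlap cannot be read as a repeat of a region in another library.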

How the data were processed

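The authors deposited 1 table of called regions without a header, in the 6-column layout of SEACR. Its columns 4 and 5 are coverage signal, summed over the region and highest in it, as deposited by the authors. Per the submitters' processing notes, the tools were Bowtie2, deepTools and SEACR and the build was mm10; versions, scaling, threshold and the way libraries were combined are not stated there.

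A region was put in the 0.48-step or the 1.9-step set when its highest signal was within 0.001 of a whole number of steps of that set alone; 3 regions fell in neither. Genes, start sites and promoters came from RefSeq tables (GRCm38.p6), with 20665 protein-coding genes on chromosomes 1 to 19; start sites covered 18 of these chromosomes. Starts were counted from 1. Mean densities were taken over 2403 Mb between the first and the last region of each chromosome. The table carries no single library, so no test was run. The rows named in the text were the 25 tallest regions, the genes and bins with most tall regions, and up to 3 members of each list; 1 gene that this rule selects is not reported here. The members and lists were chosen with earlier results of these data known. Calculations were checked on simulated regions. Python 3.11.15, numpy 2.4.6, pandas 2.3.3, scipy 1.17.1 and matplotlib 3.10.9 were used.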

Additional observations from a re-analysis of the deposited data

Results flagged for a closer look

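Regions of 4 or more steps also lay on sequences that the comparisons did not use. Chromosome X held 792 of them, 2.61% of its 0.48-step regions (2.43 to 2.79%), against 4.43% on chromosomes 1 to 19 (4.37 to 4.48%), and 11 had 6 steps or more, the tallest of 7 steps. Unplaced and unlocalised scaffolds held 21, or 5.83% of 360 regions (3.85 to 8.75%), up to 5 steps. Both are signal on sequences outside the comparisons. The level of the IgG library there was not analysed here.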

How the results depend on the processing

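Of 50 alternative values, 37 stayed within the interval of the result, or within 1.5 times the count, 12 moved beyond it and 1 fell below 1 from an interval above 1. For width and shape the band was the much wider quartile range of single regions, and the width ratio ran between 1.24 and 2.06 around 1.66. Ratios whose interval held 1 also crossed it: the gene-end ratio with width weighting, and the gene-body ratio with 5 or more and 6 or more steps (1.01). With 6 or more steps in place of 4 the gene-end ratio was 1.57, the outside-gene ratio 0.963 and the ratio for midpoints inside 1.9-step regions 1.39. These ratios were not weighted for width. With 5 or more steps the gene-body ratio was 1.02, the outside-gene ratio 0.985 and the 1.9-step ratio 1.1. Against 3-step regions the 1.9-step ratio was 1.04. With 2-step shares weighted to the widths of the tall regions the gene-end ratio was 0.976. Counting any overlap of 1 bp, the 1.9-step ratio was 1.22, but 1.06 once widths were weighted, an alternative chosen after seeing the data. The density of tall regions around tall regions was 0.782 within 1 kb. The widths of regions limit how close midpoints can lie at that distance. Genes with a tall region at an end numbered 607 with a window of 0.5 kb, 3954 with 5 kb and 172 with 5 or more steps. The cause of these shifts was not tested. No paired analysis was possible because no column names a replicate and there is a single IgG library. Depth per library is unknown.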
